A study of Mus musculus with 6 samples.

Results

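Cajal-Retzius (CR) cells of the neonatal mouse cortex are described here, as the 123 cells that carried the label CR in the authors' subtype annotation, of 18393 cells in all and of 4139 neurons. CR cells are early-born neurons of the outermost cortical layer that arise at the borders of the cortical sheet. They secrete reelin, the glycoprotein that guides migrating neurons into layers, and most of them disappear after birth. Reelin binds the receptors VLDLR and ApoER2 on other neurons and acts through the adaptor DAB1, while the transcription factors LHX5 and p73 and the calcium-binding protein calretinin mark the cells themselves.

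InDrop, a droplet method that labels the transcripts of each cell with a barcode and each captured molecule with a unique molecular identifier (UMI), was applied at P5 to both cortical hemispheres of 6 mice, 3 WT and 3 *Fmr1*-KO. The WT strain was FVB.129P2-Pde6b+ Tyrc-ch/AntJ, and the strain of the *Fmr1*-KO mice had the allele Fmr1tm1Cgr (/J) added to the same FVB.129P2-Pde6b+ Tyrc-ch background. Animals of both sexes were used. The *Fmr1* allele is a germline disruption that every cell of a KO mouse carries, so the absence of FMRP was not restricted to CR cells or to neurons. Batch 1 (V2 beads) held WT 1, *Fmr1*-KO 1 and *Fmr1*-KO 2 and batch 2 (V3.8 beads) held WT 2, WT 3 and *Fmr1*-KO 3, so batch and bead version cannot be told apart. The number of CR cells was 31, 5 and 18 in WT 1 to 3 and 14, 40 and 15 in *Fmr1*-KO 1 to 3. Levels are given as CPM, the UMIs of a gene summed over the cells of a subtype in a mouse and scaled by all UMIs of those cells in the usual way, with mean ± SD over mice that had at least 10 cells of a subtype, which leaves WT 2 out of the CR means.

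Libraries of the same mouse shared cell barcodes. Over the series 1975 of 15807 combinations of mouse and barcode (12.5%) occurred in more than 1 library of that mouse, and in 1795 of these 1975 (90.9%) all entries had the same subtype. Among CR cells 43 of 123 had a barcode that was also found in another library of the same mouse, and these 43 cells held 19 barcodes, each of them called CR in every library in which it occurred. *Fmr1*-KO 2 contributed most, with 40 CR cells from 23 barcodes, and over all mice the 123 cells had 99 distinct barcodes. Counted by barcode, WT 1 to 3 had 27, 5 and 17 CR cells and *Fmr1*-KO 1 to 3 had 13, 23 and 14. With only the deepest entry of each mouse and barcode, the mean CR level of the identity and leading genes named below moved by at most 0.11 on the log2 scale, and of 60 counts of genes per list 14 moved, by 2 genes at most.

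CR cells were deeper than most neurons, with a median of 6119 UMIs per cell (732 to 18886) against 1274 in excitatory neurons, 2469 in interneurons, 3311 in the ganglionic subtype and 3305 in the SVZ subtype. This order did not hold in every mouse. Excitatory neurons had a median of 976 UMIs in WT 1, where CR cells had 5706, but 8588 in WT 3, where CR cells had 6157.5. When each cell was thinned to 700 UMIs, the median number of genes per cell was 577 in CR cells and between 543 and 553 in the other neuron subtypes. The authors' cell cycle annotation placed 120 of the 123 CR cells (97.6%) in G1.

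All 4 markers fixed for CR cells had their highest level over the 18 subtypes in CR cells. The paper named the cluster by *Reln*, *Calb2* and *Lhx5*, so the levels of these genes describe the label and do not test it. *Reln*, the reelin gene (chr5:21884454-22344702, minus strand, mm10), was found with at least 1 UMI in every CR cell. Its level was 13181, 12141 and 12219 CPM for WT 1 to 3, and *Fmr1*-KO 1 to 3 had 11974, 10849 and 11010 CPM. The *Fmr1*-KO mice were the 3 lowest and did not overlap with the WT mice, which held for 8.9% of all genes tested, and the difference did not pass the genotype test given further on. The mean of 11847 ± 953 CPM (SD, n = 5 mice) was 39.6 times that of excitatory neurons (299 CPM), the next subtype. The 123 CR cells held 79.5% of all *Reln* UMIs.

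*Trp73*, which encodes p73 (chr4:154056253-154140208, minus strand), lay at 512, 575 and 614 CPM in WT 1 to 3 and at 395, 541 and 463 CPM in *Fmr1*-KO 1 to 3. Its mean of 505 ± 82.2 CPM (n = 5) compared with 4.02 CPM in excitatory neurons and with no UMI in any interneuron. *Lhx5*, a LIM homeobox gene that acts in the forebrain regions where CR cells arise (chr5:120431699-120441223, plus strand), varied more, from 115 CPM in WT 2 to 491 CPM in WT 1, with a mean of 285 ± 131 CPM against 3.74 CPM in excitatory neurons. *Calb2*, the calretinin gene (chr8:110137502-110168210, minus strand), was the least particular of the 4. Its mean of 359 ± 118 CPM in CR cells stood beside 293 CPM in the SVZ subtype, the mice of the 2 subtypes overlapped, and CR cells had the higher value in 2 of the 4 mice with at least 10 SVZ cells. Between CR cells and excitatory neurons, the mice did not overlap for any of the 4 genes.

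**Figure D1:**
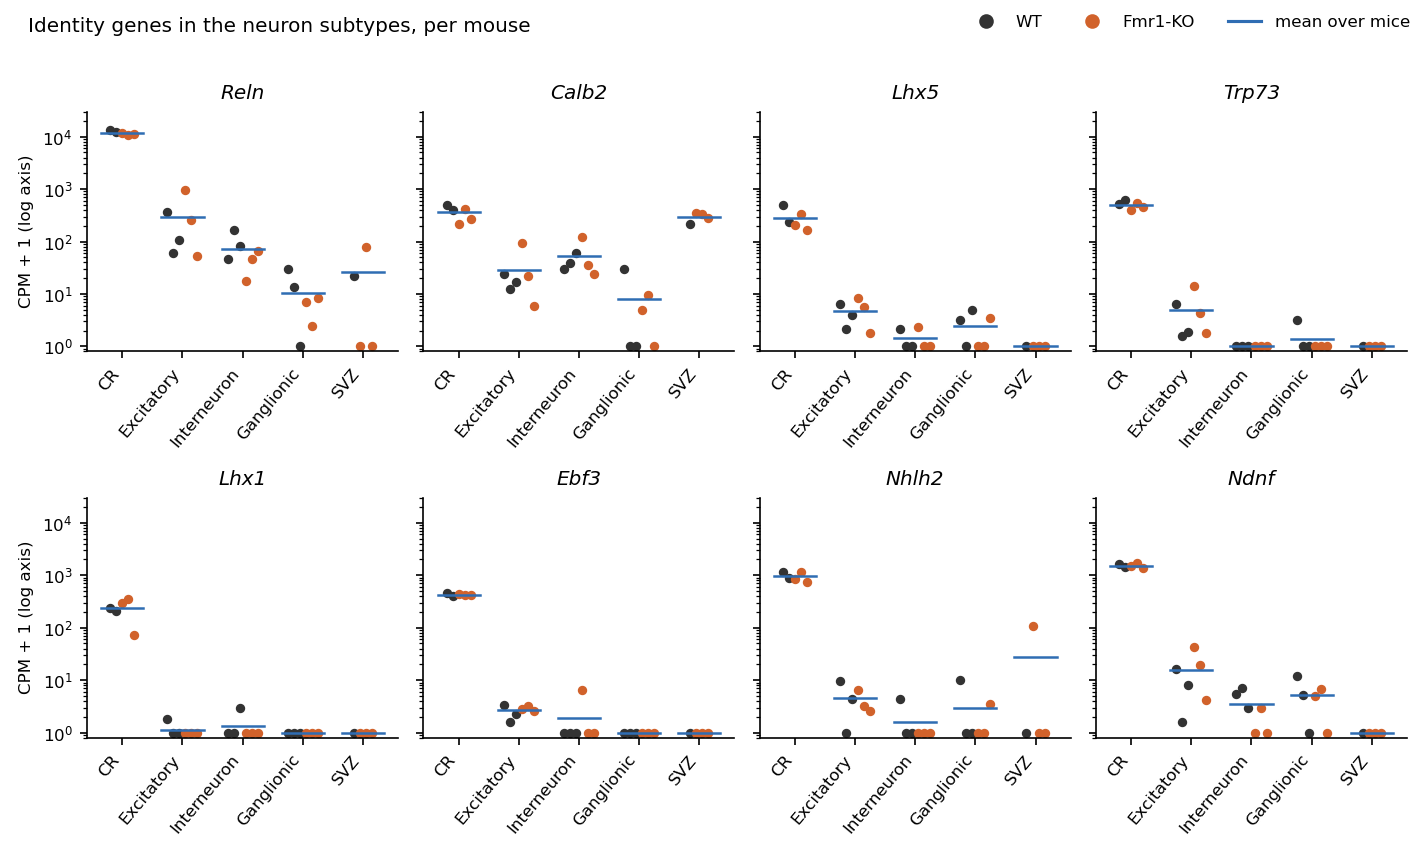
Levels of 8 genes in the 5 neuron subtypes, as CPM + 1 on a log axis, with 1 point per mouse that had at least 10 cells of the subtype (black WT, orange *Fmr1*-KO) and a blue line at the mean. *Reln* in CR cells lies between 10849 and 13181 CPM, above every mouse of the other subtypes, while *Calb2* in CR cells overlaps with the SVZ subtype.

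Among the 4 markers, *Reln* and *Trp73* were detected in the largest shares of CR cells (100% and 80.5%). *Calb2* and *Lhx5* had no entry among the RefSeq windows used. The sequences before the start sites of *Reln* and *Trp73* are shown. They are the 250 bases before each start in RefSeq (build GRCm38.p6), 5′ to 3′ on the strand of the gene. RefSeq gives 2 starts for *Trp73*, one far inside the gene, and UMIs counted near the 3′ end cannot tell transcripts from the 2 starts apart. Capitals mark CAGCTG, an E-box of the kind bound by basic helix-loop-helix factors, which reads the same on both strands.
Reln chr5:22344706-22344955, minus strand: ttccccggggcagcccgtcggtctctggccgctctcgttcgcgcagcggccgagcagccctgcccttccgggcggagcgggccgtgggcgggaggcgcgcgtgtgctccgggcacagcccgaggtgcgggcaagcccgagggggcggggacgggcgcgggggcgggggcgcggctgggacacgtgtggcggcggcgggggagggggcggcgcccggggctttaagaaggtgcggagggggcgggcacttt
Trp73, first start, chr4:154139876-154140125, minus strand: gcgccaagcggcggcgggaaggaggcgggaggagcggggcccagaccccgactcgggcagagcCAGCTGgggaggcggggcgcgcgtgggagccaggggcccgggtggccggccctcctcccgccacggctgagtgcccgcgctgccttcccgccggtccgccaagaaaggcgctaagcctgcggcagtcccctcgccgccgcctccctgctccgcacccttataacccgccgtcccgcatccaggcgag
Trp73, inner start, chr4:154097174-154097423, minus strand: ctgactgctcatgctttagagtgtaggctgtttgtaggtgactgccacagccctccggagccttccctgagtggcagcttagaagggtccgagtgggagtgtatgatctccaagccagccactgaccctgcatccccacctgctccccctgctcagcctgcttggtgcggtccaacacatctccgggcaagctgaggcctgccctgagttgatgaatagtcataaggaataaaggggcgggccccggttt
The motif occurred in 1 of the 13 genes matched out of 21 (the 4 markers and the 20 leading genes described next, 3 of which are shared), and in 13.0% of all 32851 RefSeq windows of this length.

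How many single cells showed a marker depended on depth. After thinning to 700 UMIs, 99.2% of the 123 CR cells had a *Reln* UMI (95% exact binomial interval 95.6 to 100%, counting error only), against 5.68% of 2147 excitatory neurons, from which 13 shallower cells were left out. *Trp73* was found in 32.5% (24.4 to 41.6%), *Calb2* in 23.6% (16.4 to 32.1%) and *Lhx5* in 22.8% (15.7 to 31.2%) of the thinned CR cells. The shares in thinned interneurons, which served as the level in cells that should lack p73 and LHX5, were 0% of 1109 cells for *Trp73* and 0.0902% for *Lhx5*. Without thinning, at the median depths given above, the shares in CR cells were 100%, 80.5%, 54.5% and 69.1% for *Reln*, *Trp73*, *Calb2* and *Lhx5*.

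In the 61 CR cells above the median depth, 60 had a *Trp73* UMI (98.4%), 54 an *Lhx5* UMI (88.5%) and 39 a *Calb2* UMI (63.9%). All 54 deep cells with *Lhx5* also had *Trp73*, as did 38 of the 39 with *Calb2*. With *Trp73* in 60 of the 61 deep cells, such overlap says little about pairing. Of the deep cells with *Trp73*, 6 had no *Lhx5* UMI and 22 had no *Calb2* UMI. All 4 markers were seen in 46 of the 123 cells, which had a median of 8186.5 UMIs, and *Reln* alone in 8 cells, which had a median of 868 UMIs. Per cell, the *Reln* level ranged from 906 to 27251 CPM over the cells of WT 1 and from 3741 to 29285 CPM over those of *Fmr1*-KO 2. The median over cells was 12641, 11512 and 11409 CPM for WT 1 to 3, and 11435, 11076 and 9698 CPM for *Fmr1*-KO 1 to 3.

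**Figure D2:**
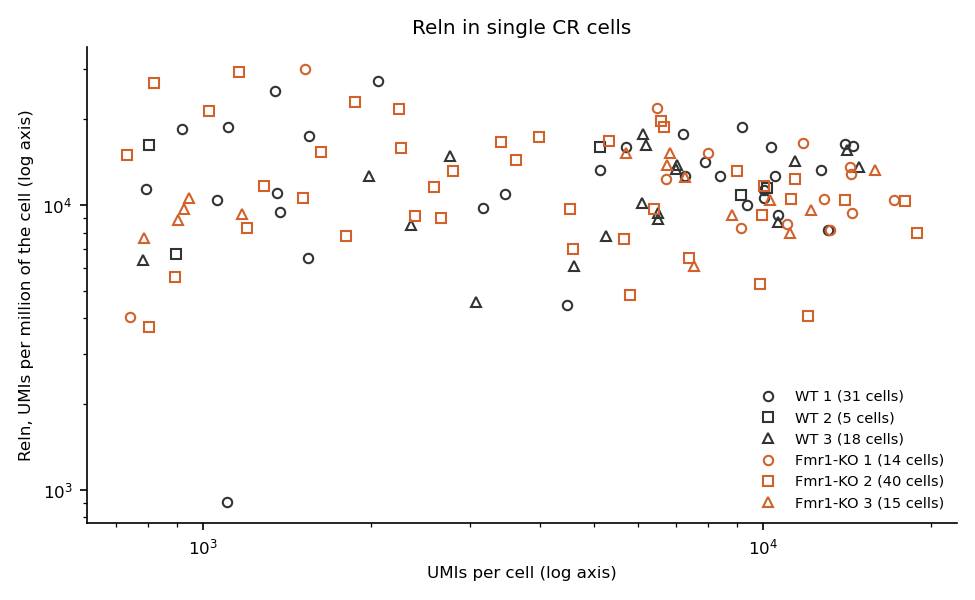
*Reln* in each of the 123 CR cells, as CPM of the cell, against the UMIs of the cell, both on log axes. Black symbols are WT and orange symbols *Fmr1*-KO mice, circles, squares and triangles mark mice 1, 2 and 3, and all cells but 1 cell of WT 1 (906 CPM) lie at 3741 CPM or above.

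A few cells outside the CR label resembled CR cells. The level of *Reln* in excitatory neurons ranged from 53.0 CPM in *Fmr1*-KO 3 to 952 CPM in *Fmr1*-KO 1, and 14 of 2160 excitatory neurons, each with at least 20 *Reln* UMIs, held 1034 of the 1614 *Reln* UMIs of that subtype. Without these 14 cells the excitatory level was 24.1 to 276 CPM, and the log2 ratio of CR cells to excitatory neurons rose from 5.31 to 6.86. In 9 excitatory neurons at least 2 of the factors *Lhx1*, *Lhx5*, *Trp73*, *Ebf3* and *Nhlh2* were detected, compared with 111 CR cells and 2 cells of all other subtypes. These cells were left in their deposited subtype.

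The 20 genes with the largest ratio of CR cells to the next neuron subtype (of the 6136 genes detected in 15% or more of CR cells) were chosen on these values, which are therefore a description. They were *Lhx1*, *Ebf3*, *Dsp*, *Trp73*, *Ndnf*, *Ripk4*, *Gdf5*, *Lhx5*, *Samd3*, *P2rx5*, *Fam183b*, *Mab21l1*, *Tuft1*, *Rec114*, *Kcnj5*, *Reln*, *Cd274*, *Cxcl12*, *Nhlh2* and *Fibin*. Transcription factors led the list. *Lhx1*, the LIM homeobox paralog of *Lhx5*, had 235, 268 and 205 CPM for WT 1 to 3 and 296, 358 and 72.0 CPM for *Fmr1*-KO 1 to 3, against a highest mean of 0.326 CPM in the other neuron subtypes. *Ebf3*, a factor of the EBF family, was the most even, at 428 ± 21.2 CPM (n = 5) with a range from 401 to 460 CPM over the 5 mice, against 1.66 CPM in excitatory neurons. *Nhlh2*, a basic helix-loop-helix factor, stood at 962 ± 192 CPM against 26.3 CPM in the SVZ subtype.

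Secreted proteins came next. *Ndnf*, which encodes a secreted neurotrophic factor, had 1521 ± 132 CPM in CR cells and 14.4 CPM in excitatory neurons, a ratio of 102. *Cxcl12*, the chemokine that meninges release and that keeps CR cells at the surface, reached 2168 and 1714 CPM for WT 1 and WT 3, with 1034 CPM for WT 2, and 1905, 2105 and 1595 CPM for *Fmr1*-KO 1 to 3. Its mean of 1897 ± 246 CPM was 36.8 times that of the SVZ subtype. Fibroblasts had more, at 4312 CPM over pooled cells. The fibroblast markers *Col3a1*, *Dcn* and *Lum* had no UMI in CR cells, and 3 of 6 fibroblast markers were detected at a summed 0 to 41.3 CPM per mouse, against 21639 CPM in fibroblasts. *Gdf5*, a ligand of the BMP family, was at 121 ± 40.7 CPM.

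Other leading genes encode membrane and structural proteins. *Cd274*, the immune checkpoint ligand PD-L1, was at 391 ± 120 CPM against 9.91 CPM in excitatory neurons. *Kcnj5*, an inward rectifier potassium channel, was at 159 ± 17.9 CPM, and the purinergic receptor gene *P2rx5* at 50.4 to 103 CPM over the 5 mice. *Dsp*, which encodes the junction protein desmoplakin, was at 150 ± 126 CPM. *Fam183b* was the exception among the 20, with no UMI in the 191414 UMIs of WT 1 but 264 CPM in WT 3 and 169, 50.4 and 165 CPM in *Fmr1*-KO 1 to 3, so that its groups of mice overlapped with those of excitatory neurons. In ependymal cells of WT 1 the same gene had 35 UMIs (196 CPM).

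Genes that were low in CR cells were found in the same way, as the 10 with the smallest ratio to the lowest of the other neuron subtypes. Among them were *Sez6*, *Nell2*, *Mpped2*, *Unc5d*, *Pcdh8*, *Meis2*, *Smarcd3* and *Pitpnc1*. The TALE homeobox gene *Meis2* had 7.42 ± 8.59 CPM, against 156 CPM in excitatory neurons and 1246 CPM in interneurons, and lay below every mouse of both. *Unc5d*, a netrin receptor gene, and *Pcdh8*, a protocadherin gene, had no UMI in the CR cells. With a floor of 3 counts over the 5 mice, their mean in excitatory neurons was at least 23.1-fold and 26.7-fold higher.

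Among 21 other genes known from CR cells, 17 passed a mean of 20 CPM over CR cells and excitatory neurons, and in 14 of these every CR mouse was above every mouse of excitatory neurons, with 2 below and 1 overlapping. Over all 7822 genes with that mean, 11.3% were higher and 11.7% lower in this sense, and against interneurons 12.2% of 7663 genes were higher and 11.5% lower. The median log2 ratio to excitatory neurons was 4.59 over the 17 genes and 0.04 over all genes. *Lhx1*, *Ebf3*, *Nhlh2* and *Ndnf* passed the mean level only through CR cells and are also among the 20 leading genes. These counts and medians are therefore a description and no support for the label. The 2 genes below excitatory neurons were *Meis2* and *Spock1*. *Cacna2d2*, an auxiliary calcium channel subunit, was at 1253 ± 103 CPM against 51.4 CPM in excitatory neurons, and *Car10* at 304 ± 25.0 against 31.4 CPM. *Emx2*, a cortical patterning factor, was at 400 ± 110 CPM against 113 CPM in the SVZ subtype, while *Tbr1*, which projection neurons share, was at 385 ± 110 CPM beside 378 CPM in the SVZ subtype. *Zic1* and *Zic2*, known from CR cells of septal and hem origin, had 278 ± 96.2 and 317 ± 93.8 CPM, and fibroblasts had 852 and 654 CPM over pooled cells. *Barhl2* was detected in 41 of 123 cells, at 87.9 ± 51.0 CPM. *Lmx1a*, a gene of the cortical hem, had UMIs in 2 cells and *Ebf1* in 2 cells.

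Of 15 genes for reelin receptors and transducers that passed, 3 were lower than in excitatory neurons, 2 were higher and 10 overlapped, with a median log2 ratio of -0.05, beside 11.7% lower and 11.3% higher over all genes. *Vldlr*, which encodes a reelin receptor, had 31.3 and 8.53 CPM for WT 1 and WT 3 and 0, 18.3 and 10.3 CPM for *Fmr1*-KO 1 to 3, with 38.3 CPM (1 UMI) for WT 2. Its mean of 13.7 ± 11.8 CPM compared with 168 CPM in excitatory neurons, 11.9 times as high. *Vldlr* was also low in the ganglionic subtype (0 to 38.1 CPM over mice) and in the SVZ subtype (0 to 64.0 CPM). *Dab1*, the intracellular adaptor, had 18.6 ± 18.0 CPM against 190 CPM in excitatory neurons. Over mice, *Dab1* had 38.1 to 80.5 CPM in the ganglionic subtype and 0 to 42.7 CPM in the SVZ subtype. *Lrp8*, the gene of ApoER2, had 99.4 ± 20.4 CPM against 164 CPM in excitatory neurons and 911 CPM in the SVZ subtype. Every CR mouse was below every mouse of excitatory neurons for these 3 genes, and of the other 12 genes of the list that passed the mean level only *Src* and *Crkl* did not overlap, both higher in CR cells.

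**Figure D3:**
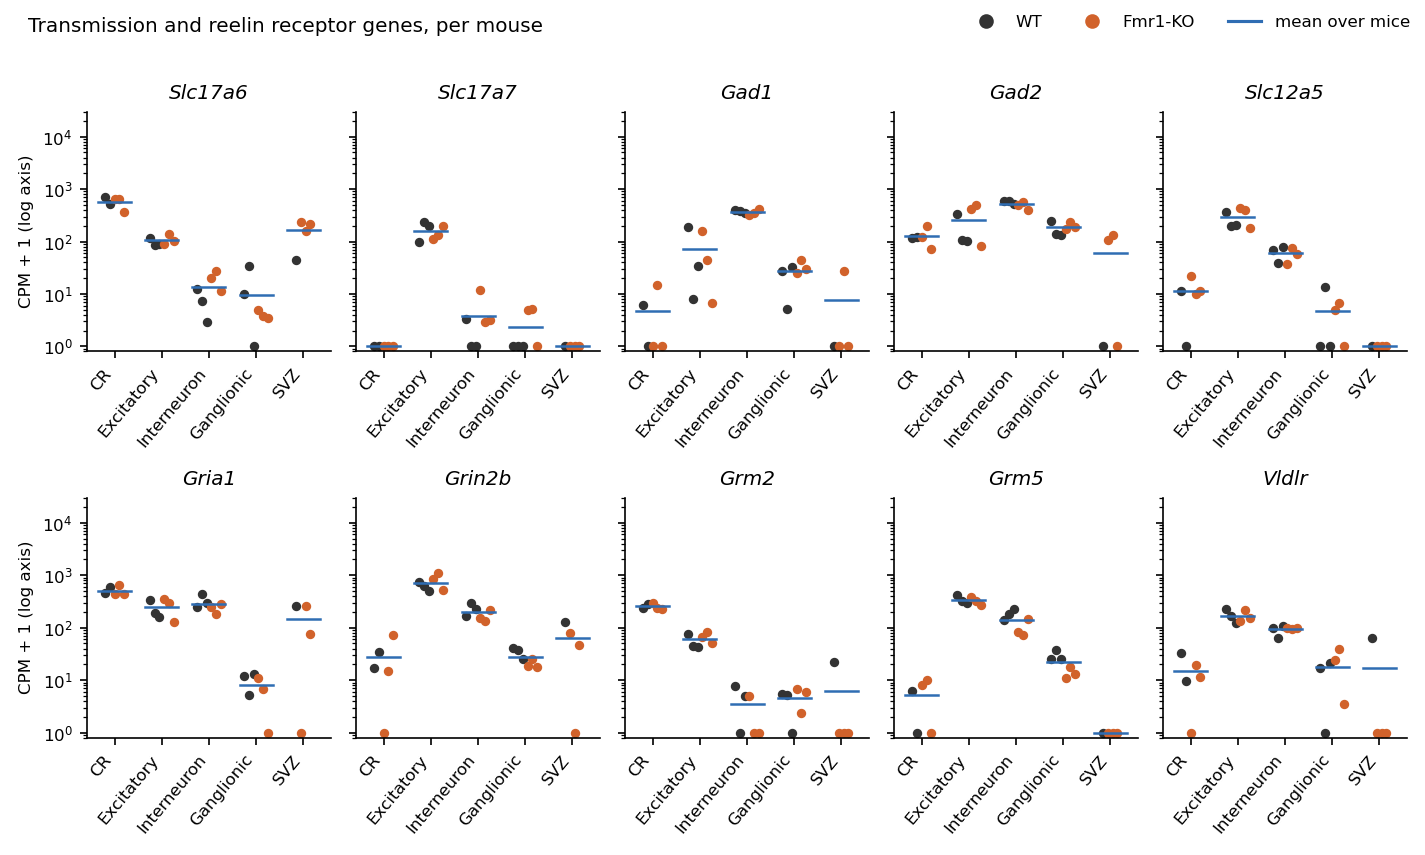
Levels of 10 genes of neurotransmission and reelin reception in the 5 neuron subtypes, as CPM + 1 on a log axis, with 1 point per mouse with at least 10 cells (black WT, orange *Fmr1*-KO) and a blue line at the mean. *Slc17a7* is at 0 in all CR mice, *Slc17a6* and *Grm2* lie above the other subtypes, and *Slc12a5*, *Grin2b*, *Grm5* and *Vldlr* lie below every mouse of excitatory neurons.

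Among genes of glutamate and GABA release, *Slc17a6* was the gene that was higher in CR cells than in excitatory neurons, of 8 that passed the mean level. Over all genes 11.3% were higher. *Slc17a6*, the gene of the vesicular glutamate transporter VGLUT2, was at 695 and 512 CPM for WT 1 and WT 3 and at 642, 660 and 360 CPM for *Fmr1*-KO 1 to 3. Its mean of 574 ± 138 CPM was above every mouse of excitatory neurons (84.4 to 140 CPM). *Slc17a7*, the gene of VGLUT1, had no UMI in CR cells, and its mean in excitatory neurons (160 CPM) was at least 41.0-fold above the floor of 3 counts. *Gad1* and *Slc32a1*, needed to make and load GABA, had UMIs in 3 CR cells each, at 3.80 and 3.01 CPM, against 367 and 225 CPM in interneurons. *Gad2* was found in 59 of 123 CR cells at 124 ± 43.4 CPM, below every mouse of interneurons (mean 522 CPM). After thinning, 9.76% of CR cells (5.14 to 16.4%), 12.5% of excitatory neurons and 4.62% of SVZ cells (0.962 to 12.9%) had a *Gad2* UMI. The share in CR cells was thus not above that in excitatory neurons, whose *Gad2* level varied from 80.3 to 497 CPM over mice.

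Of 20 genes for GABA and glycine receptors and chloride cotransporters, 15 passed the mean level and in 11 of these every CR mouse was below every mouse of excitatory neurons, with none above. Over all genes 11.7% were lower and 11.3% higher. Genes such as *Gabra4* and *Slc12a5* passed the mean level only through excitatory neurons, so these counts are a description. Against interneurons, 3 of 12 were lower, 1 was higher and 8 overlapped, with a median log2 ratio of -0.41. *Slc12a5*, the gene of the chloride exporter KCC2, which lowers chloride in maturing neurons, was at 10.2 ± 7.51 CPM against 299 CPM in excitatory neurons, which is 27.9 times as high. *Slc12a5* was as low in the ganglionic subtype (0 to 12.3 CPM over mice) and at 0 CPM in the SVZ subtype. *Slc12a2*, the gene of the importer NKCC1, was at 27.1 ± 15.5 CPM against 55.7 CPM, and its mice overlapped. *Gabra4* had no UMI in CR cells and was at least 14.3-fold higher in excitatory neurons. *Gabra2*, *Gabbr1* and *Glrb*, at 123 ± 56.1, 308 ± 79.8 and 131 ± 24.5 CPM, overlapped with excitatory neurons.

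Glutamate receptor genes divided. Of 13 genes that passed, 8 were lower in every CR mouse and 3 were higher, and these were *Gria1* (511 ± 99.2 CPM against 243), *Gria4* (136 ± 22.2 against 50.5) and *Grm2* (256 ± 31.2 against 59.2). Over all genes 11.7% were lower and 11.3% higher. *Gria3* had no UMI in CR cells and was at least 27.6-fold higher in excitatory neurons. *Gria3* and *Grm5* passed the mean level only through excitatory neurons, so the counts are a description. *Grin2b*, an NMDA receptor subunit, was at 27.1 ± 27.9 CPM against 722 CPM, whereas *Grin1*, the obligatory subunit, was at 179 ± 10.7 CPM beside 191 CPM and overlapped. *Grm5*, the gene of mGluR5, was at 4.29 ± 4.16 CPM against 335 CPM in excitatory neurons and 141 CPM in interneurons. In the ganglionic subtype *Grm5* had 9.85 to 37.0 CPM over mice and *Grin2b* 17.1 to 40.3 CPM. In the SVZ subtype *Grm5* was at 0 CPM and *Grin2b* at 0 to 128 CPM.

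**Figure D4:**
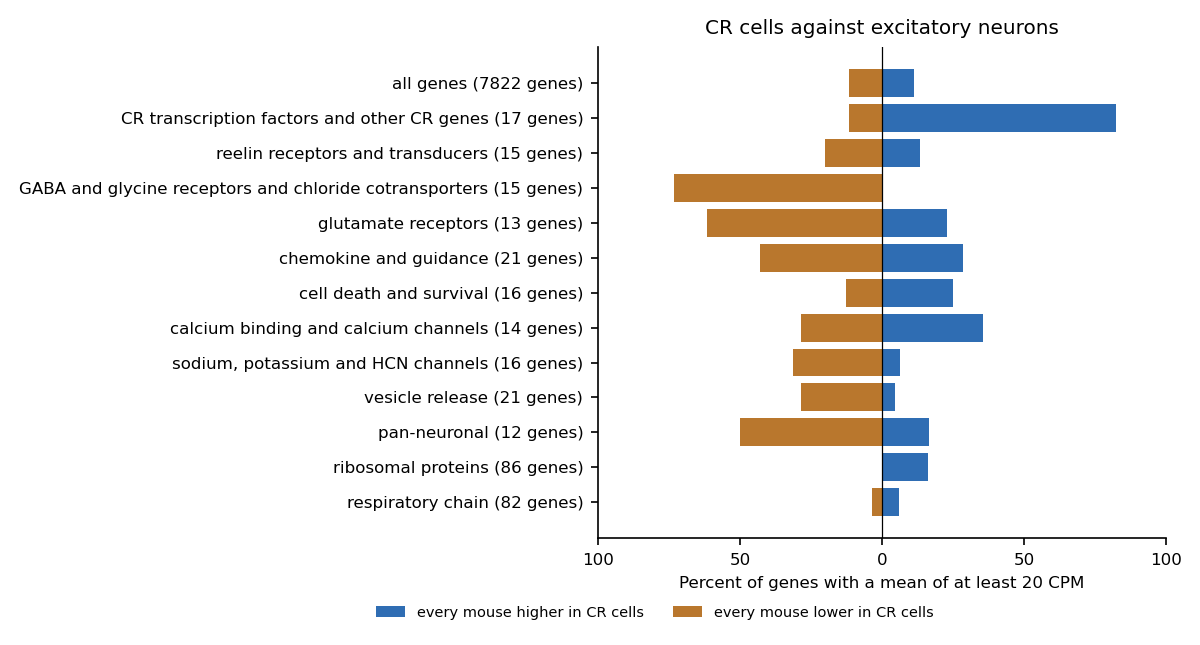
Percent of the genes of each list for which every CR mouse (n = 5) was higher (blue, to the right) or lower (brown, to the left) than every mouse of excitatory neurons (n = 6), among genes with a mean of at least 20 CPM over both subtypes. Over all 7822 genes 11.3% were higher and 11.7% lower, and 11 of 15 genes for GABA and glycine receptors and chloride cotransporters were lower.

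Of 14 genes for calcium binding and calcium channels that passed, 5 were higher than in excitatory neurons, 4 were lower and 5 overlapped, with a median log2 ratio of -0.72. Against interneurons 6 of 12 were higher and none was lower. Over all genes 11.3% were higher and 11.7% lower than in excitatory neurons, and 12.2% and 11.5% than in interneurons. The lower ones against excitatory neurons were the channel genes *Cacna1g* (12.1 ± 12.9 against 87.3 CPM), *Cacna1h* (1.41 ± 3.16 against 46.5), *Cacnb3* (91.5 ± 16.8 against 162) and *Cacnb4* (64.2 ± 18.1 against 136). In addition to *Calb2* and *Cacna2d2*, the auxiliary subunit genes *Cacna2d1* (1350 ± 299 CPM against 387 in excitatory neurons) and *Cacna2d3* (178 ± 73.8 against 64.2) and the pore subunit gene *Cacna1a* (409 ± 38.6 against 198) did not overlap with excitatory neurons. *Cxcr4*, the receptor for CXCL12, had 359 ± 87.8 CPM against 38.1 CPM in the SVZ subtype, and 57 of the 61 deep CR cells had UMIs of both *Cxcl12* and *Cxcr4*. Every deep cell had a *Cxcl12* UMI, so this overlap says little about pairing. Guidance receptors *Robo2* (728 ± 98.7 CPM) and *Unc5b* (280 ± 46.6 CPM) were above every mouse of excitatory neurons (means 289 and 11.1 CPM). Of the 21 chemokine and guidance genes that passed, 6 were higher and 9 lower, with the semaphorin coreceptor *Nrp1* (6.14 against 103 CPM) and the ephrin receptor *Ephb1* (1.04 against 56.8 CPM) among the lower ones.

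Of 16 genes of cell death and survival that passed, 4 were higher and 2 lower than in excitatory neurons, and 10 overlapped. Over all genes 11.3% were higher and 11.7% lower. *Diablo*, which encodes a mitochondrial protein that blocks inhibitors of apoptosis, was at 884 ± 142 CPM against 86.6 CPM in the ganglionic subtype, and its locus overlaps *B3gnt4* on the other strand, so reads of the 2 genes may not be separable. The inhibitor of apoptosis gene *Xiap* was at 187 ± 42.7 CPM against 65.0 CPM in excitatory neurons and the BH3-only gene *Bbc3* at 103 ± 11.3 against 57.1 CPM. The fourth was *Bad*, at 70.0 ± 12.4 against 42.8 CPM, which overlaps *Gpr137* on the other strand. *Ngfr*, the p75 receptor gene that is often given as a CR marker, had no UMI.

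The axon and synapse programme was partly shared with excitatory neurons. *Gap43*, a growth cone gene, was at 2506 ± 487 CPM beside 2461, *Snap25* at 478 ± 108 beside 479 and *Syt1* at 738 ± 159 beside 870 CPM, all with overlapping mice. Of 21 genes of vesicle release that passed, 14 overlapped, 6 were lower and *Syn2* was higher (725 ± 163 against 200 CPM). Against interneurons 11 of 20 were higher, 1 was lower and 8 overlapped, with a median log2 ratio of 0.90. Over all genes 11.3% were higher and 11.7% lower than in excitatory neurons, and 12.2% and 11.5% than in interneurons. *Nrxn3* and *Nlgn1*, which encode synaptic adhesion proteins, were at 6.64 and 5.24 CPM against 331 and 173 CPM. The neurofilament genes *Nefl* and *Nefm* had no UMI in CR cells, at least 29.7-fold and 23.1-fold below excitatory neurons, while the related *Ina* was at 703 ± 151 against 439 CPM. *Rbfox3*, the NeuN gene, and *Dcx*, a gene of migrating neurons, were at 52.1 ± 25.3 and 59.9 ± 43.9 CPM against 525 and 528 CPM.

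Of 16 genes for sodium, potassium and HCN channels that passed, 5 were lower than in excitatory neurons, 10 overlapped and *Kcnh7* was higher (110 ± 37.6 against 24.0 CPM). Against interneurons 3 of 14 were higher, 1 was lower and 10 overlapped, with a median log2 ratio of 0.35. Over all genes 11.3% were higher and 11.7% lower than in excitatory neurons, and 12.2% and 11.5% than in interneurons. *Scn2a1*, a sodium channel of axons, was at 187 ± 42.5 CPM against 709 CPM. Ribosomal protein genes had a median log2 ratio to excitatory neurons of 0.33 with 14 of 86 higher and none lower, but of -0.22 to interneurons, with none higher and 7 of 86 lower. Respiratory chain genes had medians of 0.06 and -0.03.

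Markers of other cell types were low in CR cells. The summed level of 8 excitatory markers was 0 to 146 CPM per mouse (6925 CPM in excitatory neurons, with *Slc17a7* at 0), and of 8 interneuron markers 72.0 to 238 CPM (2202 CPM in interneurons, with *Npas1* at 0). All 8 astrocyte markers were detected at a summed 134 to 452 CPM, which is 1.24% of their level in astrocytes. For microglia, 3 of 6 markers were detected, with *P2ry12*, *C1qa* and *C1qb* at 0. The 4 OPC markers summed to 123 to 219 CPM, most of it *Cspg4* (153 CPM over pooled CR cells against 863 in OPCs and 896 in pericytes), which reached a higher level in CR cells than in any mouse of excitatory neurons. WT and *Fmr1*-KO mice overlapped in each of these 5 sums.

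The comparison of genotypes addresses whether CR cells differ in number or expression without FMRP. CR cells made up 2.85%, 0.856% and 3.62% of the neurons of WT 1 to 3 and 2.19%, 4.56% and 3.30% of those of *Fmr1*-KO 1 to 3. The exact binomial interval of WT 2 reached from 0.279 to 1.99%. Means were 2.44 ± 1.43% in WT and 3.35 ± 1.18% in *Fmr1*-KO mice (n = 3 each), and the groups overlapped. Of all cells other than doublets, CR cells were 0.611 ± 0.521% in WT and 0.919 ± 0.558% in *Fmr1*-KO mice. edgeR's quasi-likelihood test of cell numbers gave a log2 difference of 0.27 ± 0.84 (SE), with an adjusted p of 0.9 over 18 subtypes. A two-sided exact permutation test of the shares of cells gave p = 0.6, where 0.1 is the smallest p that 3 against 3 mice allow. Without WT 2 the difference was -0.05, so the direction rested on that mouse, and it was also -0.05 without *Fmr1*-KO 3. By distinct barcodes the difference was 0.17 (adjusted p 0.929).

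*Fmr1* itself was sparse in CR cells, with 9, 2 and 5 UMIs in WT 1 to 3 and 0, 6 and 3 UMIs in *Fmr1*-KO 1 to 3. The levels of the *Fmr1*-KO mice (0 to 30.9 CPM) were below those of the WT mice (42.6 to 76.6 CPM), which held for 8.9% of all genes tested in the 5 mice with at least 10 cells, and the log2 difference of -1.13 ± 0.71 (SE, n = 2 WT and 3 *Fmr1*-KO mice) had an adjusted p of 0.95 in edgeR's test. Over all cells, doublets included, *Fmr1* had 655, 858 and 1495 UMIs for WT 1 to 3 and 136, 164 and 224 UMIs for *Fmr1*-KO 1 to 3. UMIs are read near the 3′ end, so their presence in *Fmr1*-KO mice does not show an intact transcript, and a low count does not by itself check the allele.

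No gene passed in CR cells. Of 6204 genes tested between 2 WT and 3 *Fmr1*-KO mice with batch as a covariate, 0 (0%) had an FDR under 0.01 with a change of at least 15% in edgeR's quasi-likelihood test, the lowest FDR was 0.95 and 313 genes (5.05%) had an unadjusted p under 0.05. DESeq2 gave 0 calls and 24 genes at an unadjusted p under 0.05. The typical standard error of a log2 difference was 0.46 (median), so changes of the small size allowed by the 15% limit were not detectable with these cells. With 1 entry per mouse and barcode there were again 0 calls, and 321 genes had an unadjusted p under 0.05.

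Of the 4 CR markers, *Lhx5* and *Calb2* had the largest differences, and neither passed the adjustment. The log2 difference was -0.74 ± 0.26 (SE) for *Lhx5* (unadjusted p 0.0106 and FDR 0.95 in edgeR's test) and -0.63 ± 0.26 for *Calb2* (unadjusted p 0.0224, FDR 0.95). Within batch 1 the differences were -0.86 and -0.71 and within batch 2, without WT 2, -0.48 and -0.58. WT 2, which was not in the test, had 115 CPM of *Lhx5* (3 UMIs), below every *Fmr1*-KO mouse (165 to 335 CPM). Its *Calb2* level of 268 CPM (7 UMIs) lay within the range of the *Fmr1*-KO mice (212 to 408 CPM). The mice overlapped for both genes, since *Fmr1*-KO 2 had 335 CPM of *Lhx5* and 408 CPM of *Calb2* while WT 3 had 230 and 401 CPM. *Reln* and *Trp73* differed by -0.17 ± 0.16 and -0.21 ± 0.21, each with an FDR of 0.952 in edgeR's test. Among the 15 other CR genes tested, 1 (*Barhl2*) had an unadjusted p under 0.05 in edgeR's test, beside 5.05% of all genes. It had 47.0 and 42.6 CPM in WT 1 and WT 3 and 63.5, 142 and 144 CPM in *Fmr1*-KO 1 to 3. WT 2, which was not in the test, had 76.6 CPM (2 UMIs), above *Fmr1*-KO 1.

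The 10 genes with the smallest p were *BC068281*, *Pnoc*, *Psenen*, *Rpl22l1*, *Cpt1a*, *Cd24a*, *Thsd7a*, *Lysmd3*, *Rab39b* and *Tmem69*, all with an FDR of 0.95. *Pnoc*, the precursor of the peptide nociceptin, had 402 and 273 CPM in WT 1 and WT 3 and 98.8, 220 and 134 CPM in *Fmr1*-KO 1 to 3, and the log2 difference of -1.19 ± 0.30 had the same sign within both batches (-1.33 and -1.03). These genes were chosen by p in a test of the same mice with batch as a covariate, so like signs in the batches are a description. WT 2, which was not in the test, had 421 CPM of *Pnoc* from 11 UMIs. For *Cd24a* (76.6 CPM) and *Lysmd3* (0 CPM) WT 2 lay below every *Fmr1*-KO mouse, and for *Psenen* (38.3 CPM) within their range. For *Cpt1a*, *Rpl22l1*, *Thsd7a*, *Rab39b* and *Tmem69* it lay on the side of the other WT mice. *Cpt1a*, which encodes an enzyme that brings fatty acids into mitochondria, had 146 and 128 CPM in the WT mice and 41.3 to 56.4 CPM in the *Fmr1*-KO mice. *Rpl22l1*, a ribosomal protein paralog, had 110 and 196 CPM in WT 1 and WT 3 and 198, 229 and 422 CPM in the *Fmr1*-KO mice. *BC068281* had no UMI in WT mice or in *Fmr1*-KO 3, and 6 and 20 UMIs in *Fmr1*-KO 1 and 2. Over all subtypes its level was 26.8, 30.5 and 47.2 CPM in the 3 mice of batch 1 and 1.21 to 1.80 CPM in those of batch 2, so it moved with the batch.

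**Figure D5:**
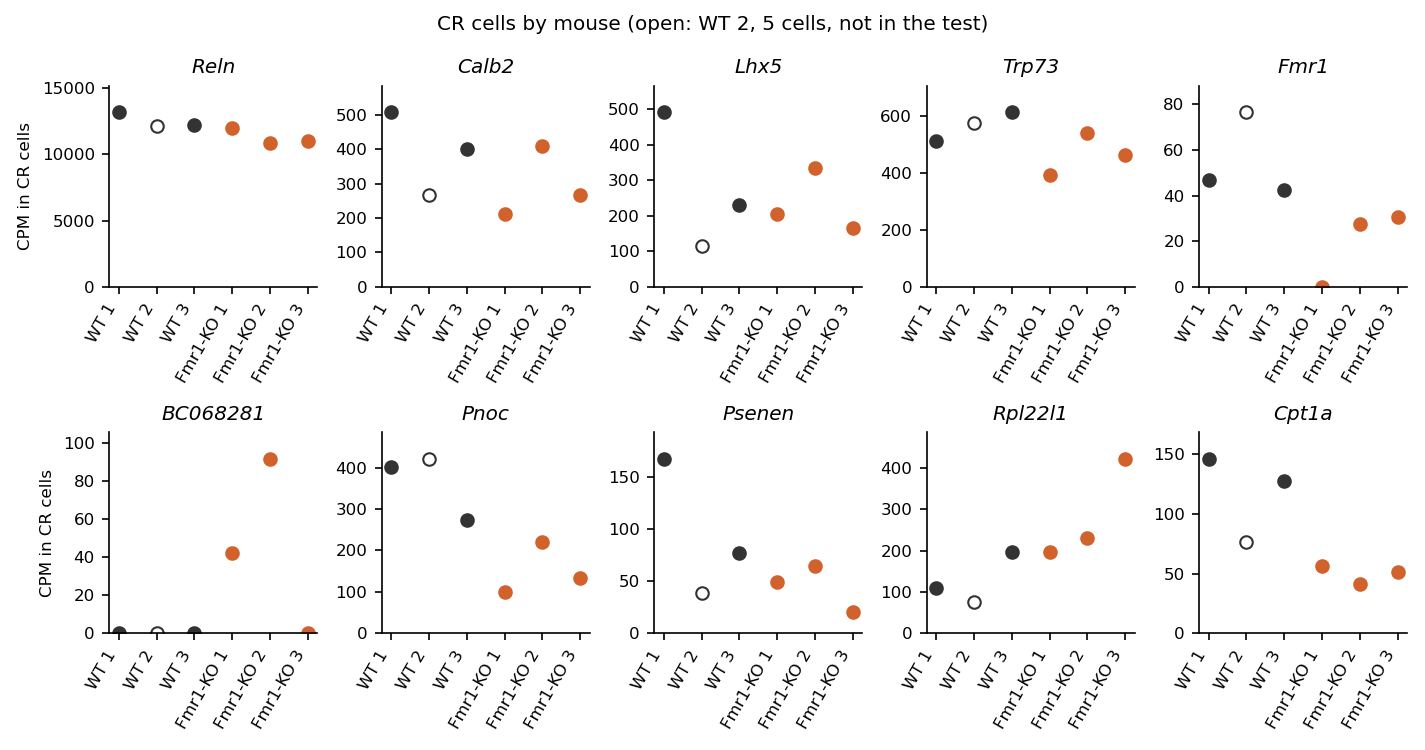
CPM in CR cells of each mouse for the 4 CR markers, *Fmr1* and the 5 genes with the smallest p in the genotype test, on linear axes from 0. Black points are WT and orange points *Fmr1*-KO mice, the open point is WT 2 (5 cells, not in the test), and the tested groups do not overlap for *Reln*, *Fmr1*, *Pnoc*, *Psenen*, *Rpl22l1* and *Cpt1a*, although no gene has an FDR under 0.95.

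The lists of genes were described by their medians. The median log2 difference was 0.01 over all 6204 genes, and it lay between -0.25 and 0.17 for the lists other than the 4 markers, for which it was -0.42. Every *Fmr1*-KO mouse was above both WT mice for 8.48% of all genes and below for 8.9%. For 84 ribosomal protein genes the median was 0.02, with -0.06 within batch 1 and 0.21 within batch 2. For 80 respiratory chain genes it was -0.05, and for 19 genes of vesicle release 0.09. The count of list members that passed the test was 0 in edgeR.

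Whether the genotype difference in CR cells departed from that in excitatory neurons was tested with the mouse as a block. The interaction had 0 calls among 6204 genes (0%), a lowest FDR of 1 and 148 genes (2.39%) at an unadjusted p under 0.05 in edgeR's test. The smallest p belonged to *Vsnl1*, a neuronal calcium sensor gene, with 36.6 and 42.6 CPM in CR cells of WT 1 and WT 3 and 205, 82.5 and 82.3 CPM in those of *Fmr1*-KO 1 to 3. In excitatory neurons the same mice had 144 and 478 CPM (WT) and 131, 145 and 321 CPM (*Fmr1*-KO). The difference between the 2 contrasts was 2.16 ± 0.63 (log2, SE), with an FDR of 1. For *Fmr1* the contrasts differed by -0.04 ± 0.73. Leaving out *Fmr1*-KO 3 gave 1 call, *Vsnl1* (FDR 0.00909).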

How the data were processed

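UMI counts of 17418 genes in 18393 cells and a table of cell annotations were used. The counts were deposited by the authors as raw UMI counts per gene and cell. According to the submitters' processing notes and the methods, reads were demultiplexed with bcl2fastq, aligned to mm10 with TopHat2 2.0.14 and counted near 3′ ends of RefSeq genes with ESAT, reads with several positions being ignored. Barcodes under 700 UMIs, erythrocytes and doublet clusters were removed, and cells were clustered in 2 rounds. The sources used here do not say whether counting used strand. CR cells and the other subtypes are the deposited labels, and the 1113 cells labelled doublets were left out of the comparisons. Doublets were counted in the UMIs of whole mice, the *Fmr1* UMIs over all cells and the total of *Reln* UMIs. The counts of shared barcodes over the series also held them.

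Counts of CR cells were summed per mouse and ranged from 26109 UMIs (WT 2) to 218093 (*Fmr1*-KO 2), so that 1 UMI was worth from 38.3 down to 4.59 CPM. Whole mice had 8070039 to 20677233 UMIs. Subtypes were compared without a test, since they are clusters. A gene was called higher or lower where the ranges of mice with at least 10 cells did not overlap, among genes with a mean of 20 CPM over both subtypes, and 0.5 CPM was added before log2. A gene can pass that mean only through the subtype where it is high, so counts per list are descriptions. Genotypes were compared over mice with edgeR 4.0.16 (quasi-likelihood test, TMM, batch covariate, genes detected in 15% or more of CR cells, FDR under 0.01 and at least 15% change) in R 4.3.3. p-values measure the spread between these mice. Thinning drew 700 UMIs per cell at random once. Fits were tested on simulated data. Positions are from GENCODE for mm10. Alternatives were no batch term, a replicate block, no TMM, DESeq2 size factors, DESeq2 1.42.0, no filter or filterByExpr, all 6 mice, thinning, other offsets, an FDR of 0.05, an exact permutation test and each mouse left out. Added after seeing the data were 1 entry per mouse and barcode (the deepest) and the removal of 14 excitatory neurons rich in *Reln*. Genes named are the members of 13 lists, markers of other cell types, the 20 highest and 10 lowest against other neurons, and the 10 smallest p of each test. *Prkcb* was named after its values were seen. Some genes of these lists are not reported here. The members and lists were chosen with earlier results of these data known. Python 3.11.15 with scipy 1.17.1 served for tables. Same-numbered mice deviated from their group means with correlations of 0.16, -0.08 and 0.13 over genes, and the labels do not pair them.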

Additional observations from a re-analysis of the deposited data

Results flagged for a closer look

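Over the 5 mice with at least 10 CR cells, 22 values (the levels of the 4 markers and the leading genes, and the CR share of neurons over 6 mice) were examined for a mouse that stood apart from the others, which chance gives in about 1 of 20 groups. One did. *Cd274* had 599.77 CPM in *Fmr1*-KO 1, from 85 UMIs, and 298 to 366 CPM in the other 4 mice. CR cells of *Fmr1*-KO 1 were the deepest, with a median of 11407.5 UMIs against 3802.5 to 6838 in the other 4 mice. The part of depth in this value was not tested.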

How the results depend on the processing

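The 21 marker and leading genes had their highest mean among the 5 neuron subtypes in CR cells under every alternative run. The log2 difference in the number of CR cells was 0.27, and from -0.05 to 0.63 with each mouse left out, turning to -0.05 without WT 2 and without *Fmr1*-KO 3. None of its alternatives passed the test. Counts of changed genes ranged from 0 to 2 with a mouse left out. *Fam183b* and *Prkcb* were called without WT 3 and without *Fmr1*-KO 3 (lowest FDR 0.00152), which leaves 1 residual degree of freedom, and *Fam183b* has 0 UMIs in WT 1. The interaction count ranged from 0 to 1. The replicate block gave 0 calls in the genotype test (lowest FDR 0.0202), where it also left 1 residual degree of freedom. With WT 2 out of that test, replicate 2 held *Fmr1*-KO 2 alone, so this mouse did not inform the genotype difference. The block gave 0 calls in the interaction, and a log2 difference of 0.73 for cell numbers, where the batch term gave 0.27. *BC068281* ranged from 0 (without WT 1) to 6.57. The cause of these changes was not tested. Of 262 values of named genes under other settings of the 2 tests, 261 kept their direction. Shares of CR cells with a UMI were 100% (*Reln*), 54.5% (*Calb2*), 69.1% (*Lhx5*) and 80.5% (*Trp73*) without thinning, and 33.0% (*Calb2*) and 45.0% (*Trp73*) at 1000 UMIs.

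With 54 WT and 69 *Fmr1*-KO cells, 1 UMI is worth several CPM, and a gene at 0 is limited only to the floor of 3 counts. In summed counts, fewer expressing cells and less RNA per cell cannot be told apart.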
